A study of Oryza sativa Japonica Group with 74 samples.

Results

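The rice cryptochromes were followed as 3 genes, CRY1a (Os02g0573200), CRY1b (Os04g0452100) and CRY2 (Os02g0625000), of the 37849 genes in the deposited tables. They were taken by identifier and not by a measured value, though with earlier results of these data known. All 3 passed the filter on low counts that left 28905 genes for testing. Cryptochromes are flavoproteins that sense blue light and descend from DNA photolyases, whose repair activity they lack. In Arabidopsis the light-activated receptors bind the COP1 and SPA ubiquitin ligase, which spares factors such as HY5 and CONSTANS from breakdown, and so they act in seedling greening and in the photoperiodic control of flowering. In rice, CRY1a and CRY1b are known for seedling responses to blue light and CRY2 for promoting flowering.

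RNA came from 21 day old whole plants of rice (Oryza sativa Japonica Group), grown in long days (LD, 14 h of light) or short days (SD, 10 h of light), and ZT is the number of hours after lights on. The phyB mutant (labelled OsphyB-/-, lacking the red light receptor phytochrome B) and the double mutant elf3-1 elf3-2 (Oself3-1 -/- Oself3-2 -/-) were sampled in either photoperiod at ZT6, ZT14 and ZT18, and the lux mutant (OsLUX-/-) at ZT14 SD alone. ELF3 and LUX are subunits of the Evening Complex, a clock repressor that acts around dusk, and the series asks how that complex passes day length to flowering. Wild type (WT, cultivar Nipponbare) was sampled at ZT2, ZT6, ZT10, ZT14, ZT18 and ZT24 in LD and SD. The labels do not say whether plants were pooled, or whether libraries of a group came from separate plants, so the p-values measure the spread between these libraries.

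Of 74 libraries, 17 had been doubted in earlier work on these data, most because many genes in them went against the label or the rest of the group, and they were left out, a choice made with the data seen: at ZT6 and ZT14 replicate 1 of phyB, elf3-1 elf3-2 and WT, and in WT also the ZT10 replicate 1 and the third replicates of ZT2 and ZT24. CRY1a shows what rests on this choice. At ZT6 LD the replicate 1 libraries stood at 150.3 CPM (labelled phyB), 132 CPM (labelled elf3-1 elf3-2) and 303 CPM (labelled WT), on a scale set over all 74 libraries, while the libraries kept stood at 282 and 295 CPM in phyB, 137 and 165 CPM in elf3-1 elf3-2, and 160.2 and 182.5 CPM in WT. The 57 libraries kept form 25 groups, 7 of 3 and 18 of 2 libraries, with totals of 25.7 to 51.8 M counts. The lowest count of a cryptochrome in any of them was 737 (CRY2) and the highest 13479 (CRY1b). CPM are counts scaled to library size with TMM factors, and log2 fold changes (± SE) and adjusted p are from edgeR's quasi-likelihood test with Benjamini-Hochberg adjustment over the tested genes, with 0.05 as the threshold. For results called only without the doubted libraries, the value with all 74 is given in the same account. With all 74, fewer of the tested genes passed too, and 0 in some comparisons, as given under the dependence on processing.

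PHYB, ELF3-1 and LUX were still transcribed in their mutants. Group means of PHYB were 22.4 to 46.8 TPM in phyB against 24.9 to 81.4 TPM in WT under the same conditions, those of ELF3-1 were 38.1 to 61.5 TPM in elf3-1 elf3-2 against 61.2 to 116 TPM in WT, and LUX averaged 51.1 ± 4.45 TPM in lux (SD, n = 3) against 70.0 ± 7.33 TPM in WT (SD, n = 2). PHYB fell by 0.52 ± 0.04 in phyB over WT (adjusted p = 5.86e-14, average of the 6 conditions), ELF3-1 fell by 0.85 ± 0.06 in elf3-1 elf3-2 (adjusted p = 4.59e-13), and LUX fell by 0.70 ± 0.24 in lux at ZT14 SD (adjusted p = 0.0111). Against the label of whole plants, the root marker RCc3 (Os02g0662000) was listed at 0 in all 54 libraries other than lux, and at 162 to 200.2 TPM in the 3 lux libraries. The meristem marker OSH1 (Os03g0727000) stood at 5.95 to 8.13 TPM in lux and at 0 in 53 of the other 54, where its highest level was 0.034 TPM. The leaf marker RBCS (Os12g0274700), a Rubisco small subunit, had a median of 1090 and a highest level of 1369 TPM in lux, and was at 2061 to 7983 TPM in the others. The other leaf marker, CAB1R (Os09g0346500), an antenna protein gene, went the opposite way at ZT14 SD, with 514 to 614 TPM in lux against 3.51 to 23.3 TPM in WT. This was not particular to lux. The elf3-1 elf3-2 libraries at ZT14 SD held 496 to 594 TPM of CAB1R, with RCc3 and OSH1 at 0. Over all libraries other than lux, CAB1R ran from 3.51 to 6311 TPM. In RNA of whole organs, fewer cells of a type and less RNA per cell cannot be told apart.

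Per length and on the TPM scale, CRY1b had the highest mean of the 3 genes in 16 of 25 groups, CRY1a in 8 and CRY2 in 1. In some groups CRY1b and CRY1a overlapped. In WT at ZT2 LD they ran from 97.95 to 101.5 and from 90.28 to 103.1 TPM. The CRY1b to CRY1a ratio of means was 1.031 there and 1.009 at ZT2 SD. CRY1b group means ran from 51.7 TPM (lux ZT14 SD) to 163 TPM (WT ZT24 SD), with a median of 96.7. Those of CRY1a ran from 35.9 TPM (lux ZT14 SD) to 140.3 TPM (phyB ZT6 LD), with a median of 88.6. The CRY2 means were lower, with a median of 39.1 TPM, a lowest mean of 13.2 TPM (phyB ZT18 SD) and a highest of 64.0 TPM (lux ZT14 SD). Of the TPM summed over the 3 genes, CRY2 thus made up 5.47 ± 0.34% in phyB at ZT18 SD and 42.1 ± 2.85% in lux (SD over libraries, n = 3 each). The CRY1b to CRY1a ratio of mean TPM was below 1 in all 6 phyB groups, at 0.726 to 0.925, while in WT under the same conditions it was 0.914 at ZT14 LD and between 1.096 and 1.39 elsewhere. Among libraries left out, replicate 1 labelled WT held less CRY1b than CRY1a at ZT6 and ZT14 in LD and SD (92.3 against 145.5 TPM at ZT6 LD). Replicate 1 labelled phyB held more CRY1b at ZT6 SD (86.9 against 81.7 TPM) and ZT14 SD (107.6 against 86.4 TPM). At ZT6 LD (72.9 against 74.3 TPM) and ZT14 LD (70.55 against 70.67 TPM) it held slightly less.

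**Figure D1:**
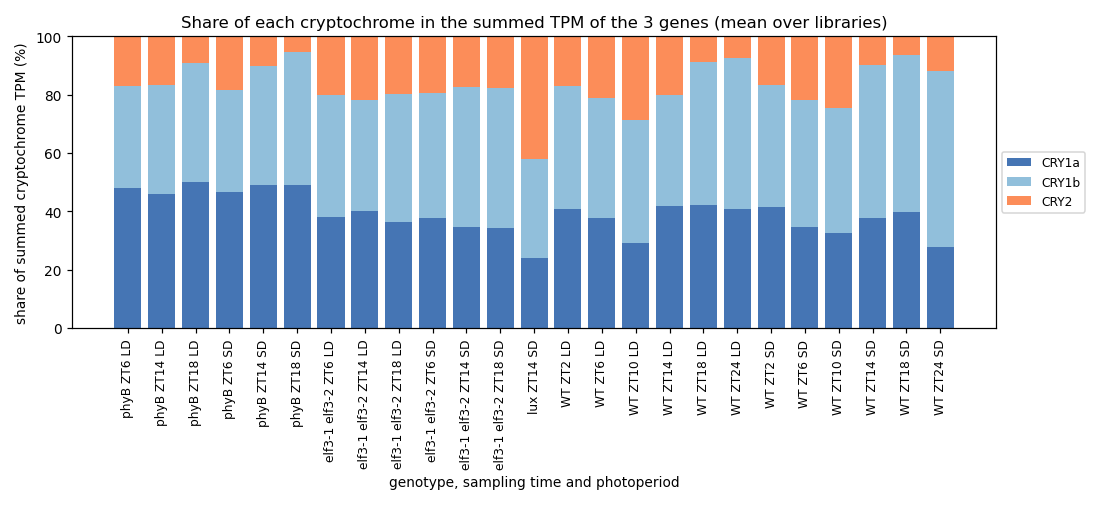
Share of each cryptochrome in the TPM summed over the 3 genes (percent, bars from 0, mean over the libraries of a group), by genotype, time and photoperiod. CRY2 holds 42.1% in lux and 5.47% in phyB at ZT18 SD, the highest and the lowest of the 25 groups.

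The WT time course answers when in the day each gene is expressed. CRY2 had its highest group mean by day and its lowest by night, and the widest range of the 3 genes. Its highest group mean in CPM was 3.36 times the lowest in LD and 4.08 times in SD. This ratio was 1.94 and 1.99 for CRY1a, and 1.84 and 2.20 for CRY1b. Time of day passed for all 3 genes, as it did for 67.4% of tested genes in LD and 76.2% in SD. The largest log2 difference between times was 1.75 in LD and 2.03 in SD for CRY2 (adjusted p = 1.58e-13 and 1.18e-13), 0.95 and 0.99 for CRY1a (adjusted p = 1.27e-07 and 1.73e-07), and 0.88 and 1.14 for CRY1b (adjusted p = 2.17e-10 and 4e-12).

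In LD, CRY1a stood at 225 and 195 CPM at ZT2, 160.2 and 182.5 at ZT6, 99.9 and 116.5 at ZT10, 128 and 137 at ZT14, 159, 149.5 and 152.5 at ZT18, and 173 and 179 at ZT24. Its SD libraries held 236 and 205 CPM at ZT2, 179 and 183 at ZT6, 100.5 and 121 at ZT10, 152 and 185 at ZT14, 168.5, 169 and 179 at ZT18, and 146.5 and 154 at ZT24. CRY1a was thus highest at ZT2 and lowest at ZT10 in LD and in SD, with no overlap between these times. In the order of the LD means, ZT24 and ZT6 overlapped and all other neighbours were apart, while in SD the ranges of ZT18, ZT14 and ZT24 overlapped from one to the next.

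CRY1b stood in LD at 250.4 and 240.4 CPM at ZT2, 206 and 215 at ZT6, 176 and 185 at ZT10, 134 and 142 at ZT14, 215, 213 and 191 at ZT18, and 244.5 and 264 at ZT24. In SD the same gene held 249 and 246 CPM at ZT2, 274 and 241.5 at ZT6, 162 and 177 at ZT10, 250.4 and 294 at ZT14, 259, 269 and 257 at ZT18, and 373 and 371 at ZT24. The lowest CRY1b libraries lay at ZT14 in LD and at ZT10 in SD, which are the times when the lights went off, and the highest at ZT24 in both. At ZT24 SD both libraries were above every other WT library, while in LD the ranges at ZT24 and ZT2 overlapped.

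In LD, CRY2 held 81.3 and 84.3 CPM at ZT2, 89.5 and 93.0 at ZT6, 100.7 and 101.3 at ZT10, 60.2 and 60.5 at ZT14, 31.8, 31.8 and 29.4 at ZT18, and 31.9 and 28.3 at ZT24. The SD libraries had 79.4 and 88.5 CPM of it at ZT2, 103 and 113.5 at ZT6, 81.2 and 77.6 at ZT10, 38.1 and 44.9 at ZT14, 27.4, 27.5 and 24.9 at ZT18, and 59.9 and 61.9 at ZT24. CRY2 was highest at ZT10 in LD and at ZT6 in SD, and the 2 lowest LD times, ZT18 and ZT24, overlapped. The SD dark period ended differently, with CRY2 at ZT24 above ZT14 and ZT18.

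**Figure D2:**
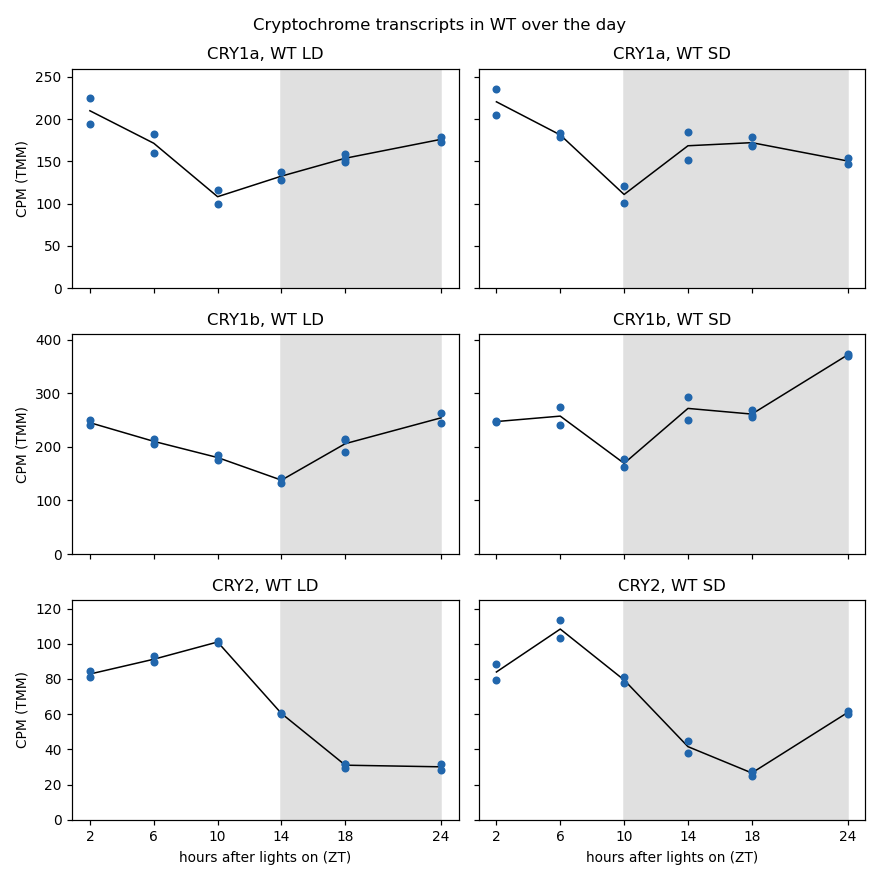
CPM of the 3 cryptochromes in WT against hours after lights on, LD left and SD right. Points are libraries, lines join group means, and the grey area is darkness. CRY2 is highest by day (LD at ZT10, SD at ZT6), and CRY1b at ZT24 SD stands at 371 and 373 CPM.

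Steps between neighbouring times placed these changes. Over ZT2, ZT6 passed for none of the 3 genes in LD or SD, where 27.8% and 30.6% of tested genes passed. DESeq2 did call CRY1a in LD and SD (−0.29 and −0.30, adjusted p = 0.0491 and 0.0406) and CRY1b in LD (−0.22, adjusted p = 0.0356), and limma called CRY2 in SD (0.44, adjusted p = 0.0421). At ZT10 over ZT6 in LD (24.2% of genes called) CRY1a fell by 0.66 ± 0.12 (adjusted p = 4.07e-05). CRY1b did not pass there, though its libraries were apart (206 and 215 CPM at ZT6, 176 and 185 at ZT10). DESeq2 called this fall of CRY1b (−0.24, adjusted p = 0.0273), as did limma (−0.18, adjusted p = 0.0416) and the compared groups alone (−0.24, adjusted p = 0.0426). The same step in SD (29.0% called), which ends as the lights go off, lowered CRY1a by 0.71, CRY1b by 0.60 and CRY2 by 0.45 (adjusted p = 9.6e-06, 5.77e-07 and 0.0383), and the CRY2 call was lost without WT ZT6 SD replicate 3, WT ZT10 SD replicate 2 or WT ZT10 SD replicate 3 (−0.48 to −0.38) and with all 74 (−0.34, adjusted p = 0.38). ZT14 over ZT10 in LD (21.6% called) gave falls of 0.39 ± 0.09 in CRY1b and 0.74 ± 0.17 in CRY2 (adjusted p = 0.00109 and 0.000944). CRY1a did not pass, though it was higher at ZT14 (128 and 137 against 99.9 and 116.5 CPM). Limma (0.43, adjusted p = 0.00233) and the replicate block (0.29, adjusted p = 0.00896) called this rise. In SD (40.1% called), where this step lies in darkness, CRY1a and CRY1b rose by 0.60 ± 0.12 and 0.68 ± 0.09 (adjusted p = 7.68e-05 and 3.24e-08), while CRY2 fell by 0.93 ± 0.17 (adjusted p = 2.24e-05).

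ZT18 over ZT14, the first dark step in LD (27.0% called), raised CRY1b by 0.58 ± 0.08 and lowered CRY2 by 0.96 ± 0.16 (adjusted p = 4.77e-07 and 6.04e-06). CRY1a did not pass except with limma (0.28, adjusted p = 0.0281). In SD (20.6% called) CRY2 alone passed, falling by 0.65 ± 0.16 (adjusted p = 0.00283), a call lost without WT ZT14 SD replicate 3 (−0.53, adjusted p = 0.1) and with all 74 libraries (−0.62, adjusted p = 0.178). Late in the night, ZT24 over ZT18 gave a rise of CRY1b in LD (0.30 ± 0.08, adjusted p = 0.00235, 35.3% called), lost without WT ZT24 LD replicate 2 (0.24, adjusted p = 0.0816) and with all 74 libraries (0.27, adjusted p = 0.156). In SD (46.7% called) CRY1b rose by 0.51 ± 0.08 and CRY2 by 1.20 ± 0.16 (adjusted p = 9.8e-07 and 4.27e-08), of which the first was lost with all 74 libraries (0.33, adjusted p = 0.0582). CRY2 did not pass at this step in LD (−0.04, 95% interval −0.38 to 0.29, and 0.57 with all 74, adjusted p = 0.0949). CRY1a passed in LD with the replicate block alone (0.22, adjusted p = 0.0206). In SD limma alone called CRY1a, as a fall (−0.39, adjusted p = 0.000836), where TPM scaling moved the median gene by −0.20 against TMM.

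From the end of the night into the morning, ZT2 over ZT24, CRY2 rose by 1.46 ± 0.17 in LD (adjusted p = 2.83e-08, 26.8% called; 0.80 with all 74 libraries, adjusted p = 0.0376). In SD (42.4% called) CRY1a rose by 0.55 ± 0.12 and CRY2 by 0.46 ± 0.17, while CRY1b fell by 0.59 ± 0.09 (adjusted p = 0.000229, 0.0249 and 6.3e-07). The CRY2 call in SD was lost without any 1 of the 4 libraries (0.32 to 0.47), and CRY1a with all 74 (0.45, adjusted p = 0.0997). In LD limma called a fall of CRY1b (−0.27, adjusted p = 0.00211), where TPM scaling moved the median gene by −0.21 against TMM. The replicate block called a rise of CRY1a in LD (0.25, adjusted p = 0.0238).

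LD over SD in WT asks what day length changes at a matched hour. CRY1b was lower in LD at 4 of 6 times, and the CRY2 difference had opposite signs at ZT14 and ZT24. Averaged over the 6 times (47.5% of genes called) CRY1b fell by 0.35 ± 0.03 in LD over SD (adjusted p = 7.87e-11), while CRY1a (−0.08, 95% interval −0.17 to 0.02, adjusted p = 0.183) and CRY2 (−0.03, 95% interval −0.17 to 0.11, adjusted p = 0.802) did not pass. The LD over SD difference varied with time for CRY1b (range of 1.07, adjusted p = 2.52e-08) and CRY2 (1.56, adjusted p = 1.48e-05), as for 53.6% of genes, and did not pass for CRY1a (0.57, adjusted p = 0.0831). With all 74 libraries the CRY2 result was lost (0.70, adjusted p = 0.469).

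No cryptochrome passed at ZT2 (29.9% called) or ZT10 (16.6% called), though at ZT10 limma called CRY1b (0.24, adjusted p = 0.00977) and CRY2 (0.48, adjusted p = 0.037), and CRY2 passed with the compared groups alone (0.37, adjusted p = 0.0159). CRY1b at ZT6 (19.8% called) was lower by 0.29 ± 0.09 in LD (adjusted p = 0.0142), a call lost without WT ZT6 LD replicate 2 or WT ZT6 SD replicate 2 (−0.27 and −0.19) and with all 74 libraries (−0.21, adjusted p = 0.468). At ZT14, when the light ended in LD and the SD night had begun (41.0% called), CRY1b stood at 134 and 142 CPM in LD against 250.4 and 294 in SD, a fall of 0.98 ± 0.09 (adjusted p = 1.05e-11). CRY1a also fell, by 0.35 ± 0.12 (adjusted p = 0.0176), while CRY2 rose by 0.54 ± 0.17 (adjusted p = 0.00994). The CRY1a call at ZT14 was lost without WT ZT14 LD replicate 2 or WT ZT14 SD replicate 3 (−0.30 and −0.21), the CRY2 call without WT ZT14 LD replicate 3 or WT ZT14 SD replicate 2 (0.53 and 0.43), and both with all 74 (−0.32 and 0.49, adjusted p = 0.247 and 0.132). At ZT18 (35.3% called) CRY1b was lower in LD by 0.34 ± 0.07 (adjusted p = 0.000216, and 0.0678 with all 74 libraries at −0.36). At ZT24 (33.8% called) it was lower by 0.55 ± 0.09 (adjusted p = 4.3e-06). CRY1a did not pass there, though it was higher in LD (173 and 179 against 146.5 and 154 CPM in SD). Limma called this rise (0.33, adjusted p = 0.0128), as did the replicate block (0.23, adjusted p = 0.0346). CRY2 at ZT24 stood at 31.9 and 28.3 CPM in LD against 59.9 and 61.9 in SD, a fall of 1.02 ± 0.18 (adjusted p = 1.68e-05). This CRY2 difference rests on leaving out replicate 3, which held 76.1 CPM in LD and 27.9 CPM in SD, and with all 74 libraries it was −0.15 (adjusted p = 0.811).

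In both mutants sampled in LD and SD, CRY1a and CRY1b were lower in LD at ZT14 and ZT18. At ZT6, LD over SD passed for no cryptochrome in phyB (7.59% called) or elf3-1 elf3-2 (16.7% called). In phyB at ZT14 (34.0% called) CRY1a fell by 0.39 ± 0.12 and CRY1b by 0.46 ± 0.09, while CRY2 rose by 0.46 ± 0.17 (adjusted p = 0.00954, 4.84e-05 and 0.0352). For phyB at ZT18 (28.5% called) CRY1a fell by 0.35 ± 0.10, CRY1b fell by 0.52 ± 0.07 and CRY2 rose by 0.39 ± 0.15 (adjusted p = 0.00491, 3.79e-07 and 0.0409). Both CRY2 calls in phyB were lost without any 1 of their libraries (adjusted p up to 0.153 and 0.113) and with all 74 (0.11 and 0.40), the CRY1a call at ZT14 without phyB ZT14 LD replicate 2 or phyB ZT14 SD replicate 3 (−0.30 and −0.23) and with all 74 (−0.33), and that at ZT18 with all 74 (−0.35, adjusted p = 0.316).

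The elf3-1 elf3-2 plants at ZT14 (39.5% called) had CRY1a lower in LD by 0.35 ± 0.12 and CRY1b by 0.88 ± 0.09 (adjusted p = 0.0177 and 2.24e-10). At ZT18 (37.3% called) these differences were −0.35 ± 0.10 and −0.56 ± 0.07 (adjusted p = 0.00384 and 6.68e-08). CRY1a was lost at ZT14 without elf3-1 elf3-2 ZT14 LD replicate 2 or ZT14 SD replicate 3 (−0.34 and −0.22), and with all 74 libraries at ZT14 (−0.30, adjusted p = 0.474) and ZT18 (−0.35, adjusted p = 0.252). CRY2 did not pass in elf3-1 elf3-2 at ZT14 (−0.22, 95% interval −0.56 to 0.12) or ZT18 (−0.25, −0.53 to 0.02), and at ZT18 it did without LD replicate 1 (−0.42, adjusted p = 0.0228) or SD replicate 1 (−0.38, adjusted p = 0.0447).

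**Figure D3:**
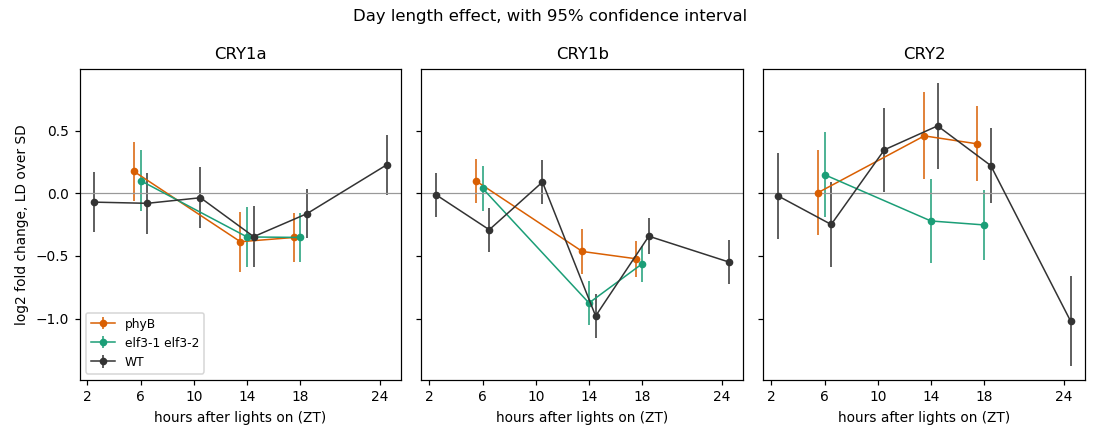
Log2 fold change of LD over SD (y axis) against hours after lights on in phyB, elf3-1 elf3-2 and WT, with 95% confidence intervals. At ZT14 CRY1b lies at −0.46 in phyB, −0.88 in elf3-1 elf3-2 and −0.98 in WT, and CRY2 in WT reaches −1.02 at ZT24.

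The comparison of phyB with WT asks what the loss of the red light receptor does to the blue light receptors. CRY1a was called higher in phyB at ZT6, and CRY1b was called lower in the dark conditions. At ZT6 LD the phyB libraries held 282 and 295 CPM of CRY1a, against 160.2 and 182.5 in WT, and both were above every WT library kept, of any time. This was a rise of 0.75 ± 0.12 (adjusted p = 6.38e-06, 21.2% of genes called; 0.17 and not called with all 74 libraries). At ZT6 SD phyB held 238 and 273 CPM against 179 and 183 in WT, a rise of 0.50 ± 0.12 (adjusted p = 0.00185, 21.4% called) that was lost without phyB ZT6 SD replicate 3 (0.41, adjusted p = 0.0512) and with all 74 libraries (0.09). CRY1a did not pass at ZT14 LD (0.11, 24.6% called), ZT14 SD (0.15, 28.2% called), ZT18 LD (0.05, 29.6% called) or ZT18 SD (0.24, adjusted p = 0.074, 21.9% called). The last passed without phyB ZT18 SD replicate 2 (0.30, adjusted p = 0.0493), with the compared groups alone (0.24, adjusted p = 0.026) and with limma (0.27, adjusted p = 0.0211). On log2(TPM + 1), limma also called CRY1a at ZT14 SD (0.28, adjusted p = 0.0492).

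CRY1b in phyB stood at 170.4 and 193 CPM at ZT14 SD, against 250.4 and 294 in WT, a fall of 0.58 ± 0.09 (adjusted p = 2.64e-06). At ZT18 LD it held 149, 156 and 144 CPM in phyB against 215, 213 and 191 in WT, a fall of 0.46 ± 0.07 (adjusted p = 3.49e-06). At ZT18 SD phyB held 215, 206.5 and 223 CPM against 259, 269 and 257 in WT, a fall of 0.28 ± 0.07 (adjusted p = 0.00309). The groups did not overlap in any of these 3 conditions, all of them dark. In the other 3 conditions CRY1b lay at 0.19 (ZT6 LD), −0.20 (ZT6 SD) and −0.07 (ZT14 LD) without passing. At ZT6 the groups were apart too. There phyB was higher in LD (244 and 235 against 206 and 215 CPM) and lower in SD (215 and 232 against 274 and 241.5 CPM). Limma called the ZT6 SD difference (−0.23, adjusted p = 0.0127). CRY2 passed in no single condition, with values of −0.32 (ZT18 SD, adjusted p = 0.135) to 0.09 (ZT6 LD). With the compared groups alone it did pass at ZT18 SD (−0.31, adjusted p = 0.0175).

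Averaged over the 6 conditions (46.5% of genes called), CRY1a rose by 0.30 ± 0.05 in phyB, CRY1b fell by 0.24 ± 0.03 and CRY2 fell by 0.17 ± 0.07 (adjusted p = 8.09e-07, 2.36e-07 and 0.0306). The CRY2 call ended without any 1 of 6 libraries: phyB ZT6 LD replicate 2, phyB ZT6 SD replicate 2, phyB ZT14 SD replicate 3, WT ZT6 LD replicate 3, WT ZT6 SD replicate 3 or WT ZT14 SD replicate 3 (−0.17 to −0.15). Whether the phyB effect varied over ZT6, ZT14 and ZT18 was tested after its values had been seen: it did for CRY1a (range of 0.49, adjusted p = 0.00123) and CRY1b (0.36, adjusted p = 0.00176), as for 22.2% of genes, and not for CRY2 (0.21, adjusted p = 0.602). The effect on CRY1b was 0.24 ± 0.07 higher in LD than in SD (adjusted p = 0.014, 10.9% called), which was lost without WT ZT14 SD replicate 3 (0.21, adjusted p = 0.0576). With all 74 libraries, the averages were 0.06 for CRY1a and −0.08 for CRY2, and neither passed. The falls of CRY1b at ZT18 LD and on average were called with all 74 libraries too (adjusted p = 0.0394 and 0.00563), and those at ZT14 SD and ZT18 SD were not (−0.39 and −0.28, both adjusted p = 0.289). The tests by time (0.25 for CRY1a and 0.28 for CRY1b) and that of LD against SD for CRY1b (0.13) did not pass either.

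**Figure D4:**
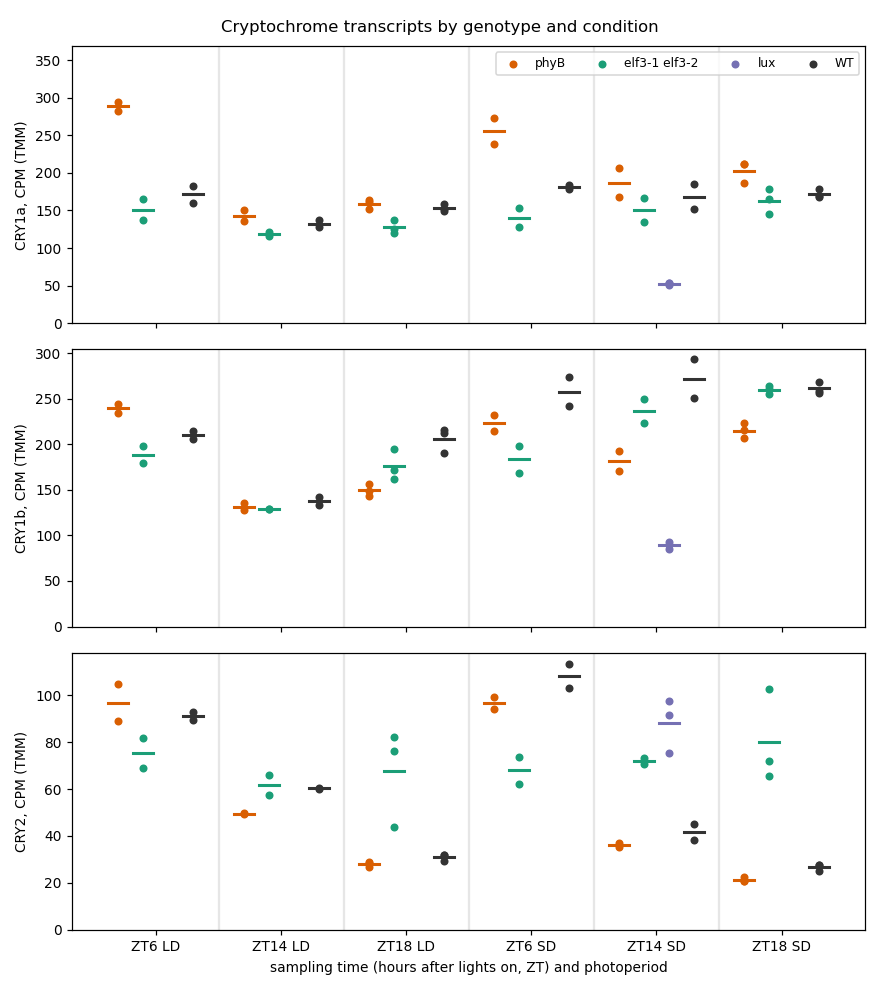
CPM of the 3 cryptochromes (y axis, from 0) by condition, with phyB, elf3-1 elf3-2, lux and WT from left to right in each. Points are libraries and bars are group means. CRY1a in phyB at ZT6 LD reaches 295 CPM, CRY2 in elf3-1 elf3-2 at ZT18 lies at 43.9 CPM or more against at most 31.8 CPM in WT, and lux holds the lowest CRY1a and CRY1b libraries.

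In the elf3-1 elf3-2 mutant the largest change of the 3 genes was in CRY2, which was higher than in WT in the dark. At ZT18 LD the mutant held 82.3, 76.2 and 43.9 CPM of CRY2, against 31.8, 31.8 and 29.4 in WT. This was a rise of 1.12 ± 0.14 (adjusted p = 4.56e-07, 13.9% of genes called). At ZT18 SD it held 65.6, 102.5 and 72.1 CPM against 27.4, 27.5 and 24.9, a rise of 1.59 ± 0.14 (adjusted p = 1.01e-10, 9.39% called). No mutant library overlapped WT at ZT18, and the mutant libraries differed more among themselves than the WT ones. No doubted library lies at ZT18, and with all 74 in the fit the values were 1.15 and 1.60 (adjusted p = 0.0149 and 8.74e-05).

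The other times gave CRY2 differences of either sign. At ZT14 SD, also in darkness, it stood at 73.2 and 70.6 CPM in the mutant and 38.1 and 44.9 in WT, a rise of 0.79 ± 0.17 (adjusted p = 0.00231, 5.7% called) that was lost without WT ZT14 SD replicate 2 (0.70, adjusted p = 0.0615) and with all 74 libraries (0.77, adjusted p = 0.107). At ZT14 LD it held 65.8 and 57.5 CPM against 60.2 and 60.5 in WT (0.03, 95% interval −0.31 to 0.37, 4.09% called). At ZT6 SD it was lower, with 62.2 and 73.8 CPM against 103 and 113.5 in WT, a fall of 0.67 ± 0.17 (adjusted p = 0.00336, 19.4% called). At ZT6 LD the mutant held 69.1 and 81.6 CPM against 89.5 and 93.0 in WT, which did not pass (−0.27, adjusted p = 0.438, 5.39% called). Over the 6 conditions CRY2 rose by 0.43 ± 0.07 (adjusted p = 2.55e-06, 28.1% called). Its effect varied over ZT6, ZT14 and ZT18, by 1.83 on the log2 scale (adjusted p = 8.87e-11, 14.2% called), a test added after the values had been seen.

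CRY1a and CRY1b moved less in elf3-1 elf3-2. On average CRY1a fell by 0.20 ± 0.05 and CRY1b by 0.20 ± 0.03 (adjusted p = 0.000709 and 2e-05). In single conditions CRY1a passed at ZT6 SD, with 128 and 153 CPM in the mutant against 179 and 183 in WT (−0.37, adjusted p = 0.0258), and CRY1b at ZT6 SD, with 169 and 198 CPM against 274 and 241.5 (−0.49, adjusted p = 8.04e-05). CRY1a at ZT18 LD did not pass, though its groups were apart (137.5, 119.7 and 125.5 CPM against 159, 149.5 and 152.5 in WT). With the replicate block it did (−0.27, adjusted p = 0.00564). CRY1b at ZT18 LD held 195, 172 and 162 CPM in the mutant against 215, 213 and 191 in WT, so the groups overlapped, and its call (−0.23, adjusted p = 0.0275) was lost without elf3-1 elf3-2 ZT18 LD replicate 2 or 3 or WT ZT18 LD replicate 1 or 2 (−0.21 to −0.17), with DESeq2 (−0.18, adjusted p = 0.067) and with all 74 libraries (−0.20, adjusted p = 0.668). At ZT6 SD none of the 3 genes passed with all 74 libraries (CRY1a −0.48, CRY1b −0.40 and CRY2 −0.475, adjusted p = 0.286, 0.184 and 0.395) or when the fit held no groups but those compared (adjusted p = 0.223, 0.144 and 0.0623), and without elf3-1 elf3-2 ZT6 SD replicate 2 CRY1a (−0.26) and CRY2 (−0.57) were lost. The CRY1a call there was also lost without WT ZT6 SD replicate 2 (−0.38) or replicate 3 (−0.36). The effect in LD minus that in SD passed for no cryptochrome (1.15% called). Set against phyB over the 6 conditions (52.0% called), CRY1a was lower in elf3-1 elf3-2 by 0.50 ± 0.05 and CRY2 higher by 0.60 ± 0.07 (adjusted p = 4.92e-12 and 4.36e-10), while CRY1b did not pass (0.04, 95% interval −0.03 to 0.11) except with limma on TPM (0.08, adjusted p = 0.0065).

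The lux mutant at ZT14 SD had the lowest CRY1a and CRY1b and the highest CRY2 share of all groups. CRY1a stood at 51.3, 52.9 and 53.0 CPM in lux against 152 and 185 in WT, and fell by 1.68 ± 0.11 (adjusted p = 1.93e-16). CRY1b stood at 92.6, 89.5 and 85.5 CPM against 250.4 and 294, and fell by 1.61 ± 0.08 (adjusted p = 8.81e-20). CRY2 held 97.5, 91.6 and 75.4 CPM against 38.1 and 44.9 in WT, a rise of 1.08 ± 0.15 (adjusted p = 1.72e-07). Lux did not overlap WT for any of the 3 genes, in a comparison where 67.3% of tested genes passed. The 3 lux samples are numbered apart from all others of the series. An effect of genotype and any difference between these sets of libraries cannot be told apart. Against elf3-1 elf3-2 at the same time (64.4% called), CRY1a was lower in lux by 1.52 ± 0.11 and CRY1b by 1.41 ± 0.08 (adjusted p = 3.76e-15 and 4.19e-18), and CRY2 did not pass (0.29 ± 0.15, adjusted p = 0.0876; 0.36 and adjusted p = 0.0431 with DESeq2, 0.49 and adjusted p = 0.00569 with limma). All 3 lux libraries also had higher RCc3, OSH1 and CAB1R and lower RBCS than WT at ZT14 SD, as given above (162 to 200.2 TPM of RCc3 against 0), and the part of these markers in the cryptochrome values was not tested.

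**Figure D5:**
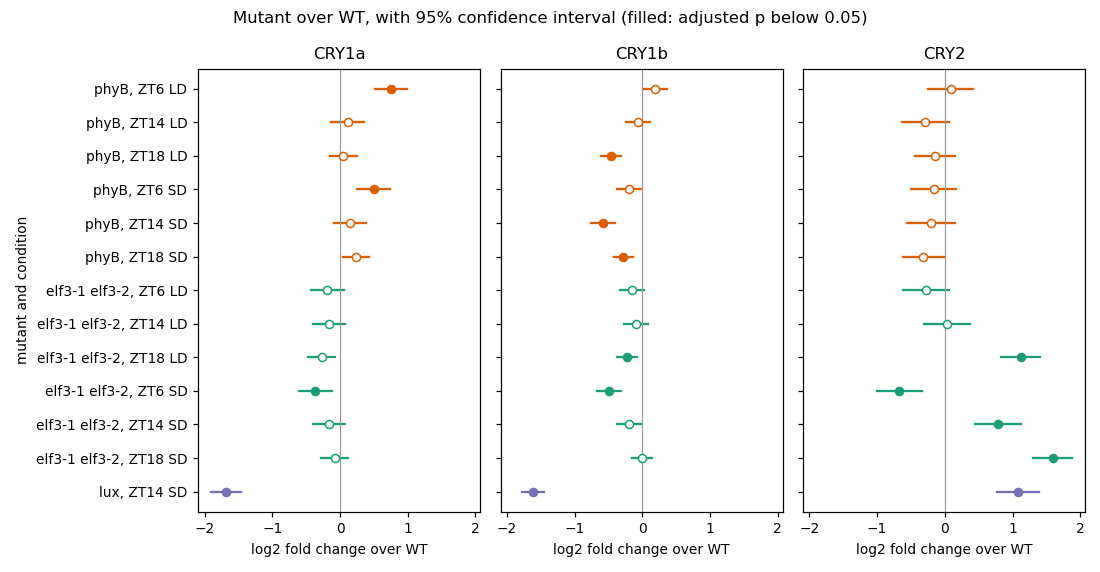
Log2 fold change over WT (x axis) for each mutant and condition, with 95% confidence intervals; filled points passed the threshold. CRY1a is at 0.75 in phyB at ZT6 LD, CRY2 at 1.59 in elf3-1 elf3-2 at ZT18 SD, and in lux CRY1a and CRY1b are at −1.68 and −1.61 with CRY2 at 1.08.

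Related light receptors and clock genes gave the setting of these changes. The lists were photolyases (PHR and UVR3, DNA repair enzymes of the cryptochrome family), phototropins (PHOT1A, PHOT1B and PHOT2, blue light receptors for phototropism and chloroplast movement), phytochromes (PHYA, PHYB and PHYC) and 8 clock and Evening Complex genes. PHOT1A and PHOT1B are near-identical, so reads may have been split between them. In WT LD over SD at ZT14, all 3 phototropins (median −1.61) and all 3 phytochromes (median −0.58) fell, as CRY1b did, and both photolyases rose (PHR by 0.95 and UVR3 by 0.88), beside a call rate of 41.0%. In phyB on average (46.5% of all genes called) PHOT1A and PHOT1B fell (−0.85 and −0.89), and PHOT2 (0.25), PHYA (0.37), PHYC (0.12) and both photolyases rose. In elf3-1 elf3-2 on average (28.1% called) all 3 phototropins (median −0.25), PHYB (−0.17) and PHYC (−0.13) fell, and no photolyase passed. In lux (67.3% called) all 3 phototropins (median −2.19), PHYB (−1.44) and PHYC (−0.90) fell, and UVR3 rose (0.83). Clock genes rose at ZT18 in elf3-1 elf3-2 together with CRY2, 6 of 8 in LD (median of the 8, 2.08) and 6 of 8 in SD (3.10), beside call rates of 13.9% and 9.39%. ELF3-1, one of the mutated genes, fell in both (−0.88 each), and LHY, a morning clock gene, fell in SD (−0.52). Among those that rose were PRR73, by 3.84 in LD and 8.37 in SD, and PRR37, by 2.85 and 6.52. Both are pseudo-response regulators. The SD values rest on low WT means at ZT18 SD, 0.65 TPM for PRR73 and 0.86 TPM for PRR37. The elf3-1 elf3-2 libraries there spread from 82.8 to 279 TPM and from 36.4 to 126 TPM. Of the leaf markers, CAB1R was higher where CRY2 was: it was at 225 to 580 TPM in elf3-1 elf3-2 against 6.76 to 9.92 TPM in WT at ZT18 LD, and at 339 to 893 against 6.36 to 8.35 TPM at ZT18 SD. RBCS was not higher, with medians of 2806 TPM in elf3-1 elf3-2 against 4006 TPM in WT at ZT18 LD, and 4968 against 5662 TPM at ZT18 SD. The part of these markers in the CRY2 result was not tested. RCc3 and OSH1 were at 0 in all of these libraries.

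Genes were ranked by the likeness of their pattern to each cryptochrome, as Pearson's r of mean log2 CPM over the 25 groups among 22148 genes; the genes compared share the same libraries, and r is a description. CRY1a was most like PHOT2 (Os04g0304200, r = 0.91 over 25 groups, 0.69 over the 12 WT groups). CRY1b was most like Os03g0823100 (r = 0.96, and 0.94 over the WT groups) and then Os03g0823200 (r = 0.94), for which no name was matched. The genes most like CRY2 were Os01g0498200 (r = 0.91) and Os06g0133100 (r = 0.89), followed by the clock gene PRR73 (r = 0.89). The leaf marker CAB1R ranked 8 of 22147 in likeness to CRY2 (r = 0.87, and 0.91 over the 12 WT groups). Among themselves, CRY1a and CRY1b had r = 0.68, CRY1a and CRY2 −0.11, and CRY1b and CRY2 −0.04.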

How the data were processed

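RNA was extracted with the RNeasy plant kit and libraries were made with the NEBNext Ultra II Directional kit, per the labels. Raw gene counts and TPM are as deposited by the authors; HISAT2, StringTie and build IRGSP-1.0 are named in the submitters' processing notes, with no versions given. The deposited WT columns named ZT00 were matched to the samples labelled ZT24. The deposited column of replicate 1 of elf3-1 elf3-2 at ZT14 LD, the mean of the other 2, was not used (1 column). Counts of 57 libraries were fitted in edgeR 4.0.16 (R 4.3.3) with a mean per group, TMM factors of 0.789 to 1.23, filterByExpr (8944 genes left out) and robust glmQLFit and glmQLFTest, with 32 residual degrees of freedom; 49 comparisons were made, 2 of them added after the values had been seen. The procedure was tested on simulated data with known changes. DESeq2 1.42.0, limma 3.58.1 on log2(TPM + 1) or log2(TPM + 0.1), all 74 libraries, a replicate block, other scaling, no filter and leaving out each library were alternatives. TPM scaling moved the median gene by −0.21 to 0.27 (log2) against TMM over the 44 single contrasts, so fold changes are relative to TMM. Replicate numbers were not used as pairs: of the 7 comparisons with 3 same-numbered pairs, all at ZT18, 0 had every correlation of deviations over 0.1 (range −0.07 to 0.235). Named were the members in every group, list genes past the threshold and the genes most like each member. Members and lists were chosen with earlier results of these data known. Of 36 listed identifiers beside the members, 17 had no matching RefSeq symbol and are not named. The 3 names CRY1a, CRY1b and CRY2 are those under which the genes were chosen. Protein and promoter sequences were not analysed here.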

Additional observations from a re-analysis of the deposited data

Results flagged for a closer look

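For CRY1b, the phyB effect was 0.24 higher in LD than in SD on the log2 scale (adjusted p = 0.014), which drew attention because the same contrast differed between photoperiods. The phyB effect also differed between times of day, over a range of 0.49 for CRY1a (adjusted p = 0.00123) and of 0.36 for CRY1b (adjusted p = 0.00176). In elf3-1 elf3-2 the effect on CRY2 differed between times by 1.83 (adjusted p = 8.87e-11). In WT the LD over SD difference varied over the day, by 1.07 for CRY1b (adjusted p = 2.52e-08) and by 1.56 for CRY2 (adjusted p = 1.48e-05). All are from edgeR's quasi-likelihood test. Of tested genes, 10.9% were called for phyB in LD against SD, and 53.6% for day length by time. By time, 22.2% were called for phyB and 14.2% for elf3-1 elf3-2, in tests added after the values had been seen. With all 74 libraries the phyB results and the CRY2 day length result did not pass. The phyB result for CRY1b in LD against SD was also lost without WT ZT14 SD replicate 3. With groups of 2 or 3 libraries, single outlying libraries were not tested for.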

How the results depend on the processing

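Of 147 results on the 3 genes, 74 were past the threshold and no value past it changed sign under the alternatives run. Leaving out each library in turn kept 56 of the 74 and lost 18, each named beside its result. With all 74 libraries 31 were lost: CRY2 in the day length by time test came to 0.70, and CRY1a and CRY2 in the phyB average to 0.064 and −0.080. CRY1a in the day length by time test passed with limma (0.65 with either pseudocount) and with the replicate block (0.57, adjusted p = 0.00446), and its value ran from 0.41 to 0.68 without single libraries, passing without WT ZT14 SD replicate 2. CRY2 in the phyB average was lost with limma on log2(TPM + 1) (−0.15, adjusted p = 0.0513) and ran from −0.19 to −0.15 without single libraries. The replicate block ended no call and added 10, of which 9 were in CRY1a, such as elf3-1 elf3-2 over WT at ZT18 LD (−0.27, adjusted p = 0.00564). The pairing check was made only where 3 replicate numbers were shared, which was at ZT18, and there it did not meet its bar. It did not cover the 14 groups made of replicates 2 and 3. In those, replicate 3 was the higher in 13 for CRY1a, 11 for CRY1b and 9 for CRY2. Calls lost and gained were 2 and 2 with DESeq2's size factors, 3 and 1 with no filter, 7 and 5 with only the compared groups, 1 and 5 with DESeq2, and 8 and 15 or 8 and 14 with limma. Estimating dispersions first, an alternative chosen after seeing the data, moved no call. Over all genes, 7707 were called with all 74 libraries against 15485 with 57 for day length by time, 8288 against 13724 for LD over SD, 4025 against 13452 for the phyB average and 3729 against 8110 for the elf3-1 elf3-2 average. With all 74, 0 genes were called for phyB over WT at ZT6 LD, at ZT6 SD and in LD minus SD. The same held for WT LD over SD at ZT6. The shares called were 0.0138% for phyB over WT at ZT14 SD and 0.169% for elf3-1 elf3-2 over WT at ZT6 SD. Nearly all other genes lost their calls there as well. The cause of these changes was not tested. The lowest cryptochrome count in a library was 737. Groups of 2 libraries limit the single conditions.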

Other observations

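Values of the libraries left out (CPM scaled over all 74, set beside the kept libraries scaled over 57) belong to no comparison above. Replicate 1 labelled phyB held 78.4 CPM of CRY2 at ZT14 SD, against 36.8 and 35.3 in the phyB libraries kept and 73.2 and 70.6 in those of elf3-1 elf3-2. Replicate 1 labelled WT held 279 CPM of CRY1a at ZT6 SD, against 238 and 273 in phyB and 179 and 183 in WT. Replicate 3 labelled WT ZT24 SD held 229.6 CPM of CRY1b, against 373 and 371 in the 2 libraries kept. At ZT10 LD the WT replicate 1 held 186 CPM of CRY1a and 247 CPM of CRY1b, against 99.9 and 116.5 CPM, and 176 and 185 CPM, in the other two.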
